A study of Mus musculus with 2 samples.

Results

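The clustered histone genes encode the canonical linker histone H1 and the core histones H2A, H2B, H3 and H4, and the gene table of this mouse pancreatic tumour series lists 67 of them under symbols starting with Hist1h, Hist2h, Hist3h or Hist4h, among 32285 genes in all. A gene was taken as a member when it had at least 10 unique molecular identifiers (UMIs, each standing for 1 captured RNA molecule) over both libraries, which left 56 members and set aside 11 genes. Of the 56, 51 were treated as replication-linked and 5 as replication-independent (Hist1h1c, Hist1h2bc, Hist2h2be, Hist3h2a and Hist3h2ba). The assignment was made from general knowledge of the genes, with earlier results of these data known. Of the 11 genes set aside, 4 had no UMI in either library, among them Hist2h2aa2, and the germ-line variants Hist1h1t and Hist1h2aa had 2 UMIs and 1 UMI. Just inside the minimum, Hist1h4k, Hist1h2an, Hist1h2ag and Hist1h4n had 11 UMIs each, and just outside it Hist1h4b had 8.

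The study compared 2 single-cell libraries made from pancreatic tumours of 6-week-old mice. EL1 is the EL1-Luc/EL1-Tag line on FVB/N, which carries the SV40 T antigen and luciferase, each driven by the elastase I promoter of acinar cells, and WTg is the same line crossed with CAG-Mettl3, in which the m6A writer Mettl3 is expressed from the ubiquitous CAG promoter. The CAG-Mettl3 mice were made in BL/6, so strain background and transgene cannot be told apart, and how many animals went into each library is not stated. With 1 library per genotype there was no replicate, no test was run, and every interval given is a 95% exact interval that covers counting error only. After filtering, EL1 held 1113 cells with a median of 26543 UMIs and WTg 905 cells with a median of 34836. The 2 libraries shared 15 barcodes, of which 0 passed the filter. All 12 acinar markers on the list used had UMIs in both libraries, with a summed level of 87258 CPM in EL1 and 92839 in WTg (CPM, counts of UMIs scaled to the same total for every group of cells). Most clusters of cells came mainly from 1 library. In tumour tissue a difference between libraries in the level of a gene can come from a different mixture of cells or from less RNA per cell, which the summed counts do not separate.

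Replication-linked histone genes are transcribed when DNA is copied, and their mRNAs end in a conserved stem-loop instead of a poly(A) tail. The stem-loop is bound by SLBP, and cleavage after it depends on the U7 small nuclear ribonucleoprotein. Replication-independent histone mRNAs are polyadenylated and are made in resting cells too. Libraries of the 10x Chromium 3′ type are primed on poly(A), so the level of a replication-linked gene here need not follow that of its stem-loop mRNA. Polyadenylated transcripts and internal priming cannot be told apart in these counts. A UMI marks 1 captured end, whatever the length of the transcript.

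The stem-loop could be read directly from the GENCODE M21 transcripts of GRCm38, within 100 bases after the stop codon, for 37 of the 51 replication-linked members and 3 of the 5 replication-independent ones. Members with a match were spread over H1 (3), H2A (9), H2B (10), H3 (9) and H4 (9). The sites of 6 members that recur in the results are printed here, 5′ to 3′, with both 6-base arms of the stem in capitals around the 4-base loop. They show that the arms are shared across H1, H2A and H3 members and that H4 has arms of its own. Hist1h1c, which was only treated here as replication-independent, has the same arms and loop as Hist1h1e.
Hist1h2ap: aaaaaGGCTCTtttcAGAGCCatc
Hist1h2ae: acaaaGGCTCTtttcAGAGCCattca
Hist1h1e: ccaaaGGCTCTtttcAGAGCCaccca
Hist1h3c: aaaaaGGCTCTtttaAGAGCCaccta
Hist1h4d: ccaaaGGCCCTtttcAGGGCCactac
Hist1h1c: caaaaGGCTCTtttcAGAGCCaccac
The stem-loops of these genes lie at chr13:21833029-21833044 (Hist1h2ap, minus strand), chr13:23570668-23570683 (Hist1h2ae, minus), chr13:23621782-23621797 (Hist1h1e, minus), chr13:23745047-23745062 (Hist1h3c, minus), chr13:23581950-23581965 (Hist1h4d, plus) and chr13:23739512-23739527 (Hist1h1c, plus). All lie after the stop codon. The annotated transcript of Hist1h2ap ends 3 bases after the stem-loop. That of Hist1h2ae runs on for 151 bases, Hist1h4d for 770, Hist1h1c for 840 and Hist1h1e for 1153. Hist1h2bc and Hist2h2be had no match in their annotated transcripts, which says only that this pattern is not in the window searched. Most replication-linked members without a match have a transcript annotated only up to or just past the stop codon, where no stem-loop could be found.

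Of the 56 members, 44 lie on chromosome 13 between 21715763 and 23764406, 9 on chromosome 3, 2 on chromosome 11 and 1 on chromosome 6. Many of the members share long stretches of sequence with others of their family, but not all do. In 20 of the 56 members under 50% of all 90-base windows were unique to the gene among the genes listed, and in 18 at least 80% were. Hist1h2ap had 7.63% unique windows, Hist1h2ae 68.1%, Hist1h1e 73.8% and Hist1h1b 100%, so the split of reads between H2A copies is uncertain. Hist3h2a lies wholly within Trim17 on the same strand, and Trim17 itself had 1 UMI in EL1 and 2 in WTg. Hist1h2be overlaps Hist1h1e on the same strand over 496 bases.

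In RefSeq promoters of GRCm38 (250 bases before to 50 after the start), the letters CCAAT were found on either strand in 42 of 48 replication-linked members with an entry, and TATAA in 38 of 48. Of the replication-independent members 3 had an entry, with CCAAT in 3 and TATAA in 2. Among all 32851 promoters 37.4% held CCAAT and 24.9% held TATAA. A match of this kind is a description of the letters and not of a bound factor.

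The replication-linked members were summed first, by cell cycle phase. Each cell was thinned to 5000 UMIs and scored for 43 S-phase and 54 G2/M-phase genes, none of them a clustered histone gene. Cells with neither score above 0 are called G1 cells here, and the others S or G2/M cells by the higher score. EL1 had 523 G1, 310 S and 142 G2/M cells, and WTg had 397, 233 and 118, with 138 and 157 shallower cells left without a phase. Within 0.02 of the boundary of S lay 83 cells of EL1 and 69 of WTg. Median depth was 25409 UMIs in G1 and 47310 in G2/M cells of EL1 and 35836 and 47158 in WTg, and its part in the result was not tested.

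Replication-linked histones stood highest in G2/M cells and little above G1 in S cells. Their summed level in EL1 was 117 CPM in G1, 174 in S and 2234 in G2/M cells. In WTg it was 129 in G1, 194 in S and 2648 in G2/M cells. The G2/M level was thus higher than the G1 level by a log2 ratio of 4.25 (4.19 to 4.32) in EL1 and 4.36 (4.29 to 4.42) in WTg. The S level was higher than the G1 level by 0.57 (0.48 to 0.66) in EL1 and 0.58 (0.49 to 0.67) in WTg. G2/M cells held 80.6% of all replication-linked UMIs of EL1 and 21.0% of its total UMIs, and in WTg 81.2% and 20.5%.

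**Figure D1:**
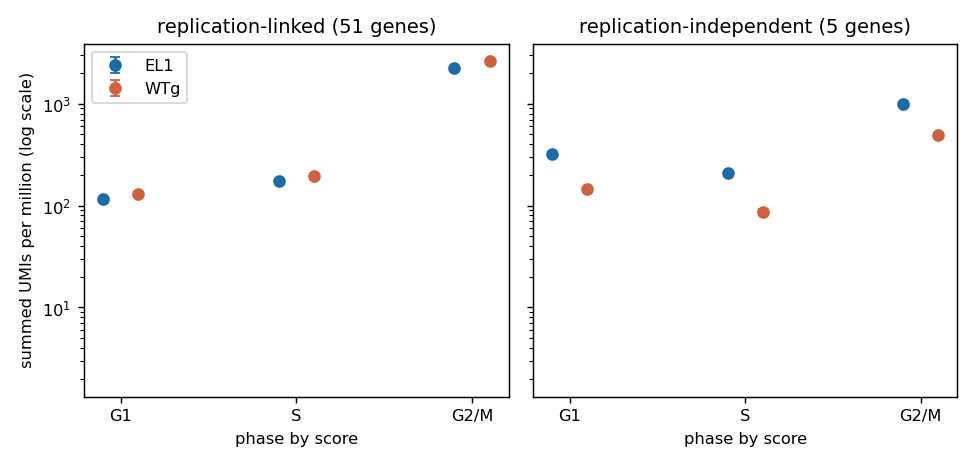
Summed level of the 51 replication-linked (left) and 5 replication-independent (right) members in CPM on a log axis, by phase, for EL1 (blue) and WTg (orange). Points are sums over cells and bars are 95% exact Poisson intervals. The replication-linked sum stands at 2234 (EL1) and 2648 (WTg) in G2/M cells against 174 and 194 in S cells, and the replication-independent sum is lowest in S cells in both libraries.

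The level also differed between cells of the same phase. The median G2/M cell of EL1 had 1915 replication-linked CPM, with quartiles of 342 and 3656, and 92 of the 142 cells were above 1000. In WTg the median was 1472, with quartiles of 269 and 4267, and 65 of 118 cells were above 1000. Among G1 cells 2 of 523 in EL1 and 0 of 397 in WTg were above 1000, and among S cells 8 of 310 and 5 of 233. The tenth of cells with the most replication-linked UMIs held 83.7% of them in EL1 and 84.1% in WTg, against 30.1% and 27.2% for the same share of cells ranked by all UMIs.

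Splitting the phases by the signs of both scores, a split chosen after the phase levels were seen, placed the higher S-phase values in cells that also had a G2/M score above 0. Cells with only the S score above 0 had 107 CPM in EL1 (252 cells) and 138 in WTg (180 cells), against 117 and 129 in cells with neither. Cells with both scores above 0 and S higher had 452 in EL1 (58 cells) and 380 in WTg (53 cells). The level was highest where both were above 0 and G2/M was higher, at 2778 in EL1 (84 cells) and 3594 in WTg (63 cells). Cells with only the G2/M score above 0 had 1474 (58 cells) and 1524 (55 cells). Without the 58 and 53 S cells that had a G2/M score above 0, S over G1 was -0.13 in EL1 and 0.10 in WTg.

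**Figure D2:**
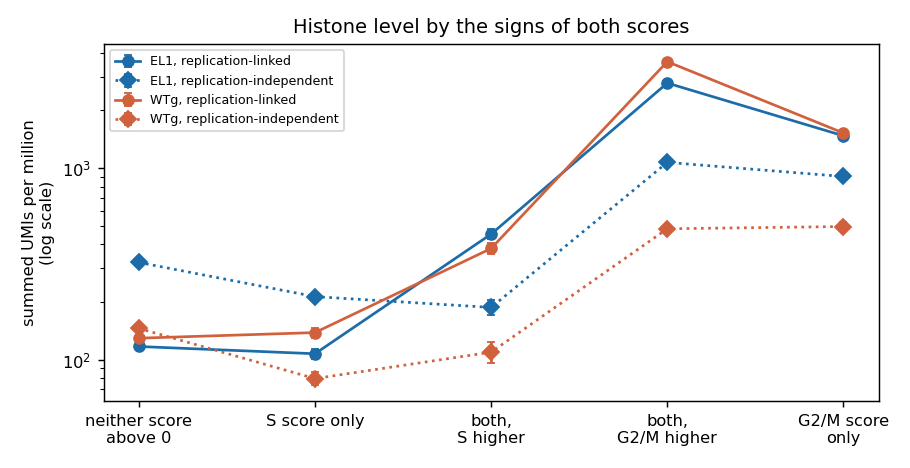
Summed CPM (log axis) of replication-linked (circles) and replication-independent (diamonds) members in cells grouped by the signs of the S and G2/M scores, for EL1 (blue) and WTg (orange), with 95% exact Poisson intervals. The replication-linked sum is near 107 to 138 in cells with no or only an S score above 0 and reaches 2778 and 3594 where both scores are above 0 and G2/M is higher. Lines join the states of 1 library and show no time course.

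In 5 equal-sized bins of the S score, the replication-linked level of EL1 was 178, 197, 583, 682 and 1073 CPM from the lowest to the highest bin. In WTg it was 300.2, 220, 377, 1078 and 1231, so its lowest bin stood above the second. In bins of the G2/M score, added after the data were seen, the first 4 bins of EL1 lay between 95.6 and 123 and the fifth at 1865. In WTg the first 4 lay between 123 and 166 and the fifth at 2265.

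The members differed in how far G2/M cells stood above G1 cells. Of the 51 members with at least 10 UMIs in G1 and G2/M cells of EL1 together, 49 were at least 2-fold higher in G2/M, against 10.6% of all 14209 genes, and in WTg 47 of 47, against 11.6% of 14293 genes. A member with few UMIs passes that minimum mostly through the phase where it is high, so these counts describe and do not support. The median log2 ratio was 3.62 over 46 replication-linked members in EL1 and 4.07 over 42 in WTg, beside 0.09 and 0.19 over all genes. By summed level the H2A members stood furthest apart, at 5.82 in EL1 and 6.39 in WTg, and H4 members least, at 2.60 and 2.64.

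**Figure D3:**
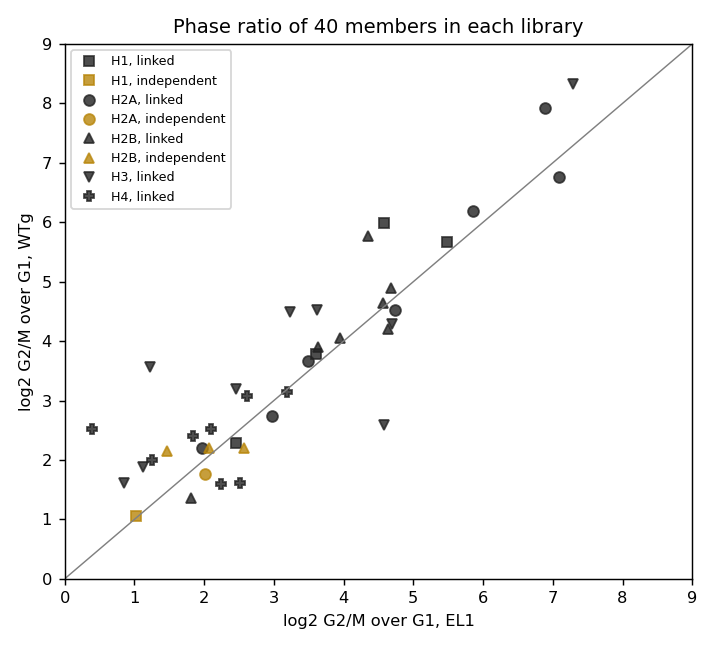
Log2 ratio of G2/M over G1 cells in EL1 (x axis) and WTg (y axis) for the 40 members with UMIs in both phases of both libraries and at least 10 per library. Black symbols are replication-linked and gold ones replication-independent members, with a shape for each family. All points are above 0 on both axes, and the 5 gold points lie between 1.02 and 2.58.

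Hist1h2ap, an H2A gene, gave 35.5% of all 44134 replication-linked UMIs, and together with Hist1h1e, Hist1h2ae and Hist1h1b it gave 76.1%. Its level in EL1 was 7.14 CPM in G1, 33.4 in S and 849 in G2/M cells, and in WTg 4.77, 35.5 and 1160. S stood above G1 by a log2 ratio of 2.23 (1.93 to 2.53) in EL1 and 2.90 (2.53 to 3.28) in WTg, and G2/M above G1 by 6.89 (6.64 to 7.16) and 7.93 (7.60 to 8.28). Hist1h2ae, another H2A gene, had 5.85, 16.0 and 338 in EL1 and 4.90, 11.9 and 357 in WTg. Both H2A genes were therefore low outside G2/M cells in both libraries. After thinning, Hist1h2ap had a UMI in 63.4% (54.9 to 71.3) of G2/M cells of EL1 and 60.2% (50.7 to 69.1) of WTg, against 3.44% (2.05 to 5.38) and 2.52% (1.21 to 4.58) of G1 cells. Without thinning the shares were 76.8% and 80.5% in G2/M and 14.7% and 14.6% in G1 cells. No cell type in the tumours lacks histone genes, so the share in G1 cells serves as the background, and the lymphoid-like clusters were too small (6 and 13 cells after thinning) to give one.

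The linker histone genes Hist1h1a to Hist1h1e pack DNA between nucleosomes and differed among themselves. Hist1h1b had 6.67 CPM in G1, 23.3 in S and 297 in G2/M cells of EL1, and 5.67, 13.2 and 289 in WTg. Hist1h1e had 41.8, 51.2 and 230 in EL1 and 67.4, 81.7 and 327 in WTg. Hist1h1e was thus already present in G1 cells, and its G2/M over G1 ratio of 2.46 (2.34 to 2.59) in EL1 and 2.28 (2.17 to 2.38) in WTg lay below that of Hist1h1b, 5.48 (5.21 to 5.76) and 5.67 (5.36 to 6.00). Hist1h1a had 0.64, 1.75 and 15.4 in EL1 and 0.26, 2.12 and 16.3 in WTg. Hist1h1d had 2.52, 2.15 and 30.4 in EL1 and 2.00, 3.47 and 27.4 in WTg. Hist1h1c, the replication-independent member of this group, is described with its class.

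Among the core histones other than H2A, Hist1h3c, an H3 gene, had 0.23, 1.43 and 36.7 CPM in G1, S and G2/M cells of EL1 and 0.13, 1.93 and 41.5 in WTg. Its G1 level rested on 4 UMIs in EL1 and 2 in WTg, and G2/M over G1 was 7.29 (5.92 to 9.18) and 8.33 (6.46 to 11.4). Hist1h3e, a second H3 gene, had 1.93, 1.75 and 18.0 in EL1 and 1.03, 2.41 and 23.1 in WTg. The H4 genes Hist1h4d and Hist1h4i were present in G1 cells too, and the interval of S over G1 lay above 0 for neither in either library. Hist1h4d had 5.62, 5.73 and 51.1 in EL1 and 8.12, 7.13 and 72.0 in WTg. Hist1h4i had 6.55, 4.46 and 40.0 in EL1 and 4.64, 3.37 and 39.3 in WTg. Of the H2B genes, which gave 2.89% of the replication-linked UMIs, Hist1h2bj had 0.41, 0.64 and 9.65 in EL1 and 0.64, 1.35 and 16.1 in WTg. Hist1h2be had 2.40, 1.35 and 8.39 in EL1 and 2.19, 0.67 and 5.63 in WTg.

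For S over G1, 9 of 32 replication-linked members with at least 10 UMIs in those phases were at least 2-fold higher in EL1 and 4 were at least 2-fold lower. In WTg 12 of 28 were higher and 1 was lower. Over all genes 5.32% were at least 2-fold higher in S in EL1 and 5.81% in WTg, and 5.77% and 9.13% were at least 2-fold lower. The median over the replication-linked members was -0.01 in EL1 and 0.56 in WTg, beside 0.03 and 0.08 over all genes. Hist1h2ap, Hist1h2ae, Hist1h2ab, Hist1h1b, Hist1h1a and Hist1h3c were past this fold in both libraries. Hist1h2ab, an H2A gene, had 0 UMIs in G1 cells of EL1 and 16 in S cells, so that S was higher by a log2 ratio of at least 2.86 against a floor of 3 counts, and 6 and 11 UMIs in WTg.

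The replication-linked members were also grouped by the annotated end of the transcript. Between the groups with a stem-loop, the summed difference rested largely on Hist1h2ap. The 19 replication-linked members whose transcript runs at least 100 bases past the stem-loop had a summed level of 82.3 CPM in G1 and 780 in G2/M cells of EL1, and 96.7 and 903 in WTg. The 18 members with a stem-loop and under 100 bases after it had 25.4 and 1043 in EL1 and 25.1 and 1389 in WTg. The log2 G2/M over G1 ratio of the first group was 3.24 (3.16 to 3.33) in EL1 and 3.22 (3.14 to 3.31) in WTg, and that of the second 5.36 (5.22 to 5.5) and 5.79 (5.64 to 5.94). The S over G1 ratio was 0.17 (0.06 to 0.28) and 0.30 (0.19 to 0.41) in the first group and 1.02 (0.84 to 1.20) and 1.17 (0.98 to 1.35) in the second. Hist1h2ap gave 15651 of the 19845 UMIs of the second group. Without it, an alternative added after seeing the data, the remaining 17 members stood at 3.4 (3.23 to 3.58) in EL1 and 3.49 (3.31 to 3.67) in WTg for G2/M over G1, near the first group, and at -0.02 (-0.27 to 0.23) and 0.04 (-0.22 to 0.29) for S over G1. The median member of the first group stood at 2.51 in EL1 and 3.08 in WTg for G2/M over G1, and that of the second at 4.56 and 4.65. For S over G1 the medians were -0.29 and 0.28 in the first group and 0.41 and 1.26 in the second, over the members with at least 10 UMIs in those phases. The 14 members without a match had 9.36 and 412 in EL1 and 7.54 and 355 in WTg. Their G2/M over G1 ratio was 5.46 (5.23 to 5.70) in EL1 and 5.56 (5.29 to 5.84) in WTg, high without Hist1h2ap. For S over G1 it was 1.67 (1.39 to 1.94) and 1.28 (0.94 to 1.62). Hist1h1b, whose annotated transcript ends at the stop codon, gave most of the UMIs of this group. Most of the 14 have an annotated transcript that ends at or just past the stop codon, so no stem-loop could be found in them. The group is thus set by the annotation and is not a class of genes shown to lack the stem-loop. Family and sequence sharing move with this grouping, since Hist1h2ap and other H2A copies fall among those that end early, and their part in the result was not tested. The difference between the groups was not tested.

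**Figure D4:**
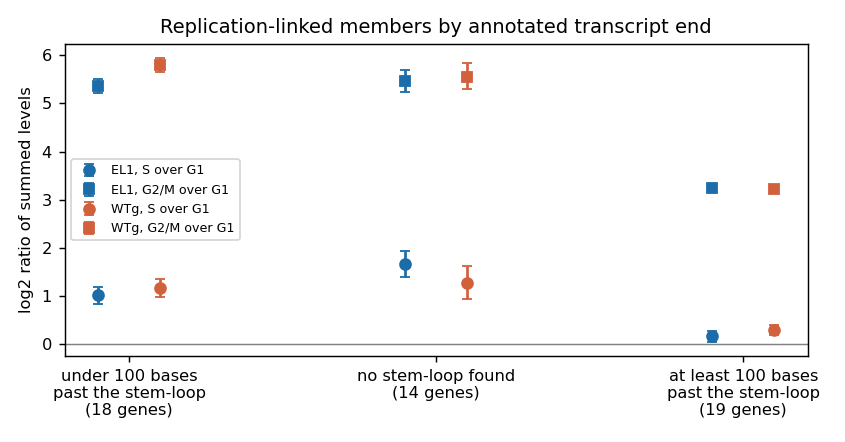
Log2 ratio of summed levels over G1 cells for S (circles) and G2/M (squares) in EL1 (blue) and WTg (orange), with replication-linked members grouped by their annotated transcript end and bars for 95% exact intervals. Members that run at least 100 bases past the stem-loop sit at 3.24 and 3.22 for G2/M over G1, below the 5.36 and 5.79 of those that end sooner, which were 3.4 and 3.49 without Hist1h2ap. Members with no stem-loop found sit at 5.46 and 5.56, and most of them have a transcript annotated only up to or just past the stop codon.

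The 5 replication-independent members had, as a sum, another order of phases than the replication-linked sum. Their summed level was 322 CPM in G1, 208 in S and 1001 in G2/M cells of EL1, and 146, 86.4 and 488 in WTg. S was lower than G1 in both libraries, with log2 ratios of -0.63 (-0.70 to -0.56) in EL1 and -0.75 (-0.87 to -0.64) in WTg, and G2/M was higher by 1.64 (1.59 to 1.69) and 1.74 (1.67 to 1.82). Each of the 5 was lower in S than in G1 in both libraries, by -0.72 to -0.50 in EL1 and -2.12 to -0.52 in WTg. The interval of Hist2h2be, with 67 and 40 UMIs in all, held 0 in both. A lower level in S was not particular to this class. The replication-linked H4 sum had an S over G1 ratio of -0.31 (-0.55 to -0.06) in EL1 and -0.29 (-0.54 to -0.04) in WTg. The H3 sum stood at -0.34 (-0.64 to -0.05) and 0.99 (0.55 to 1.44). The H1 sum stood at 0.60 and 0.41 and the H2A sum at 1.36 and 1.58. For H2B, at -0.12 and -0.11, the intervals held 0.

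Hist1h1c, an H1 gene, had 171 CPM in G1, 114 in S and 347 in G2/M cells of EL1, and 69.6, 48.4 and 145 in WTg. Hist1h2bc, an H2B gene, had 123, 74.9 and 518 in EL1 and 58.3, 28.9 and 267 in WTg. These 2 genes gave most of the UMIs of the class. Hist3h2a, an H2A gene, had 13.5, 9.0 and 54.5 in EL1 and 5.16, 2.60 and 17.5 in WTg. Hist3h2ba, an H2B gene beside it on chromosome 11, had 13.0, 9.24 and 77.8 in EL1 and 11.7, 6.26 and 54.2 in WTg. Hist2h2be, an H2B gene on chromosome 3, had 1.40, 0.96 and 3.88 in EL1 and 0.84, 0.19 and 3.70 in WTg.

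Between the libraries, the replication-independent members were lower in WTg as a sum. The summed level was 426 CPM in EL1 and 198 in WTg, a log2 ratio of -1.11 (-1.15 to -1.07). Hist1h1c had 189 CPM in EL1 and 78.5 in WTg, with a log2 ratio of -1.26 (-1.33 to -1.20). Hist1h2bc had 190 and 92.2, at -1.04 (-1.10 to -0.98), and Hist3h2a 20.7 and 7.0, at -1.56 (-1.78 to -1.35). Hist3h2ba had 25.4 and 18.8, at -0.44 (-0.59 to -0.29), and Hist2h2be 1.76 and 1.21, at -0.54 (-1.15 to 0.04), an interval that holds 0. The median of all 16167 genes was -0.14, and scaling by the trimmed mean of M-values (TMM) moved every ratio up by 0.11, which left the sum at -0.99.

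The same sum was lower in WTg within each phase, at -1.14 (-1.21 to -1.07) in G1, -1.27 (-1.38 to -1.16) in S and -1.04 (-1.10 to -0.98) in G2/M cells. It was lower in neuroendocrine-like cells, at -0.99 (-1.08 to -0.91), which were mostly cluster 1 in EL1 and cluster 3 in WTg, and in cells of unnamed clusters, at -1.19 (-1.24 to -1.14). In macrophage-like cells, 40 of EL1 and 47 of WTg in 1 shared cluster, it was -0.18 (-0.42 to 0.07). Whether the cell classes differ was not tested. Among clusters with at least 20 cells of each library the direction varied. In neuroendocrine-like cluster 3 the sum was 176 CPM (146 to 211) in 24 EL1 cells and 199 (189 to 209) in 181 WTg cells. In cluster 5 it was 80.2 (38.5 to 148) and 159 (119 to 209). It was lower in WTg in clusters 8 (859 and 171), 9 (422 and 373) and 12 (356 and 233). Over clusters with at least 20 G1 cells, the level in G1 cells ran from 188 to 443 CPM in 4 clusters for EL1 cells and from 111 to 384 in 4 for WTg cells, so the clusters of the libraries overlapped. The highest of the WTg values was that of the macrophage-like cluster, and the other 3 lay below the lowest of EL1. That of cluster 3 in WTg, at 186, was nearly equal to the lowest of EL1, 188 in cluster 2.

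The replication-linked sum was 583 CPM in EL1 and 667 in WTg, a log2 ratio of 0.19 (0.17 to 0.22). Within G1 cells it was 0.14 (0.05 to 0.23), within S cells 0.16 (0.07 to 0.24) and within G2/M cells 0.25 (0.22 to 0.28). The sum turned on a few genes. Without Hist1h2ap the ratio was 0.09 (0.06 to 0.13), and over the 15 members with at least 80% unique windows, a choice made after seeing the data, it was -0.18. With every cell weighted equally the ratio within S cells was -0.06. The median over the 51 members was -0.01, with 25 above and 26 below 0, and under TMM it was 0.10.

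Over all 56 members 3 were at least 2-fold higher in WTg, against 10.1% of all genes, and 10 were at least 2-fold lower, against 6.90%. TMM scaling gave 6 higher and 8 lower. Of the 3 higher members Hist1h4n and Hist1h2an had 11 UMIs each over both libraries, so only Hist1h4c had at least 50. The counting interval lay above 0 for 9 of 51 replication-linked members, against 21.7% of all genes, and below 0 for 10, against 40.3%. Shares of genes past this fold are background for the counts and carry no test.

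Hist1h2ak, an H2A gene, was the member furthest from 0. It had 547 UMIs in EL1 (14.4 CPM) and 56 in WTg (1.70 CPM), a log2 ratio of -3.09 (-3.51 to -2.69). In G2/M cells its level was 63.5 in EL1 and 6.96 in WTg, at -3.19 (-3.65 to -2.76), while its G2/M over G1 ratio was 7.08 in EL1 and 6.75 in WTg. After thinning, 27.5% (20.3 to 35.6) of G2/M cells of EL1 and 1.69% (0.21 to 5.99) of WTg had a UMI, and without thinning 63.4% and 26.3%. Of its windows 83.6% were unique, and its annotated transcript ends at the stop codon. Macrophage-like cells had 15.1 CPM in EL1 and 0 UMIs in WTg.

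The H3 genes Hist2h3c1 and Hist2h3c2, which lie near each other on chromosome 3, were also lower in WTg. Hist2h3c1 had 211 UMIs in EL1 and 40 in WTg, at -2.20 (-2.72 to -1.70), and Hist2h3c2 153 and 31, at -2.10 (-2.71 to -1.54). They share sequence with each other, with 66.8% and 38.0% unique windows. In EL1 the S over G1 interval lay below 0 for both, at -1.43 (-2.10 to -0.80) and -0.70 (-1.40 to -0.04), while in WTg, with 22 and 14 UMIs in those phases, it held 0. Their G2/M over G1 ratios in EL1 were 0.84 and 1.12. The H3 members as a sum stood in WTg at a log2 ratio of -1.62 (-2.01 to -1.24) to EL1 within G1 cells and 0.02 (-0.12 to 0.16) within G2/M cells. At the other end Hist1h4c, an H4 gene, had 36 UMIs in EL1 and 82 in WTg, at 1.39 (0.81 to 2.00). Hist1h3b, an H3 gene, had 61 and 106, at 1.0 (0.53 to 1.48), and Hist1h2ab 225 and 372, at 0.93 (0.68 to 1.17). Hist1h1e, with 3208 and 4120 UMIs, stood at 0.56 (0.50 to 0.63), and Hist1h1b, with 2782 and 2186, at -0.15 (-0.23 to -0.06).

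**Figure D5:**
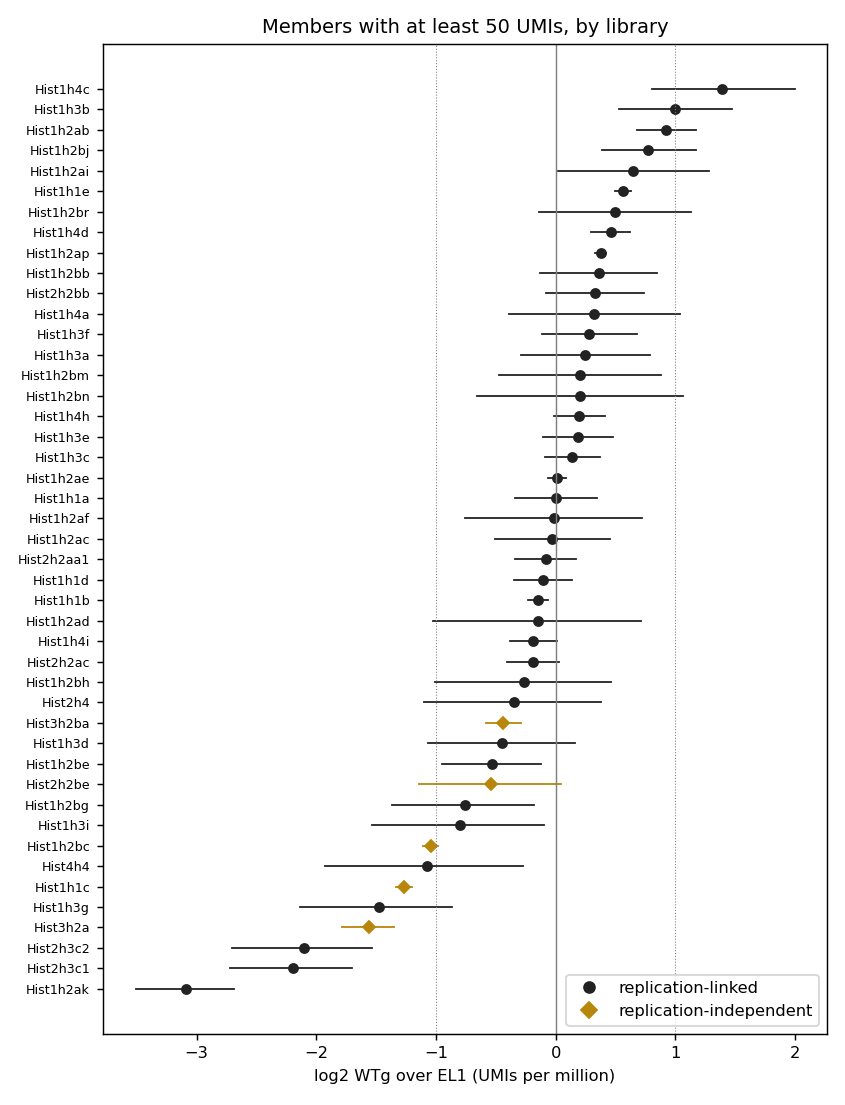
Log2 WTg over EL1 of CPM for the 45 members with at least 50 UMIs, with 95% exact intervals. Black circles are replication-linked and gold diamonds replication-independent, and dotted lines mark a 2-fold difference. Hist1h2ak at -3.09 and Hist1h4c at 1.39 are the ends of the range, and all 5 gold diamonds lie below 0.

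The replication-linked level also differed between clusters. The clustering did not use the members or the scored genes. Cluster 7, with 113 cells of EL1 and 72.6% G2/M cells, had 2051 CPM, cluster 10, with 82 cells of WTg and 79.3%, had 3020, and cluster 11, with 76 cells of EL1 and 39.2%, had 1443. The 27 EL1 cells of cluster 8, with a median of 3900 UMIs, had 667. The G2/M shares given here are of the cells with a phase, while the levels are sums over all cells of the cluster. In the EL1 cells of cluster 8 the G2/M share was 62.5%. Most of those cells were too shallow to be given a phase, so that share rests on few cells. Neuroendocrine-like cells had a replication-linked sum of 156 CPM (EL1) and 420 CPM (WTg). Macrophage-like cells had 736 and 315 CPM. G2/M cells made up 2.36% and 6.77% of the phased neuroendocrine-like cells and 4.76% and 3.33% of the macrophage-like ones, and their part in the result was not tested. The macrophage-like shares rest on very few cells, since that class held 40 cells of EL1 and 47 of WTg before the depth cut.

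Histone genes outside the clusters were compared from lists made for this purpose. The 11 replacement histones, which encode variants put in outside replication, had a summed level of 7792 CPM in EL1 and 5608 in WTg. Of them 0 were 2-fold apart between the libraries, against 10.1% of all genes higher and 6.90% lower in WTg. The interval of the library ratio lay below 0 for 9 and above 0 for 1, against 40.3% and 21.7% of all genes. Intervals are narrower for genes with many UMIs, and these 11 held 295805 UMIs in EL1. H3f3b, which encodes H3.3, had the highest level, 4231 in EL1 and 2478 in WTg, at -0.77 (-0.78 to -0.76). H2afx, the variant phosphorylated at DNA breaks, had the lowest ratio, at -0.78 (-0.88 to -0.69), and H2afj the highest, at 0.38 (0.33 to 0.43). Of the 10 replacement histones that did not score a phase, 5 were at least 2-fold higher in G2/M than in G1 cells in EL1 and 5 in WTg, against 10.6% and 11.6% of all genes.

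Among the 12 genes of histone transcription and 3′ end processing, 0 were 2-fold apart between the libraries, against 10.1% of all genes higher and 6.90% lower in WTg, and the interval lay below 0 for 8, against 40.3%. Slbp, which binds the stem-loop, had 118 CPM in EL1 and 91.8 in WTg, at -0.36 (-0.43 to -0.29). It is one of the genes that score S cells, so its phase levels are no result. Npat, the coactivator of histone gene transcription, had 21.1 and 16.9, at -0.32 (-0.48 to -0.16), and its S level was above G1 by 0.61 in EL1 and 0.49 in WTg. Zfp473 had the highest ratio, at 0.79 (-0.26 to 1.87), and Eri1, an exonuclease that acts on the stem-loop, the lowest, at -0.46 (-0.59 to -0.33).

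Of the 15 histone chaperone and assembly genes, 0 were 2-fold apart between the libraries, with the interval above 0 for 3 and below 0 for 6, shares near the 21.7% and 40.3% of all genes. Nap1l1 had the highest level, 192 in EL1 and 186 in WTg. Asf1a had the lowest ratio, at -0.72 (-0.84 to -0.60), and Hjurp, which loads the centromeric H3 variant, the highest, at 0.57 (0.50 to 0.63). Of the 12 that did not score a phase, the S over G1 interval lay above 0 for 11 in EL1 and 11 in WTg, against 20.2% (2893 of 14332) and 25% (3597 of 14377) of all genes, with medians of 0.52 and 0.72.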

How the data were processed

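The authors deposited raw counts of UMIs, made from 10x Chromium 3′ v3.1 libraries with Cell Ranger 6.0.2, per the file headers, on GRCm38, per the labels. Read length, strand and use of intronic reads are not given in the sources used here. The deposited dense tables hold the same counts for fewer barcodes (1471 of 1621 and 1346 of 1488) and served as an alternative.

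Barcodes with at least 500 genes, 1000 UMIs and at most 20% mitochondrial UMIs were kept, with 37961287 UMIs in EL1 and 33007683 in WTg. At this depth 3 counts are 0.0790 and 0.0909 CPM. Counts were summed over cells and divided by all UMIs of the same cells (CPM). Ratios have exact conditional binomial intervals, levels exact Poisson and shares exact Clopper-Pearson intervals, all at 95%. The intervals were tested on simulated counts with Poisson error only, the model they assume. That test therefore says nothing of the spread between cells or animals. Phases came from the lists in Seurat 5.3.0, scored against genes of like level (25 bins). Clusters came from scanpy 1.11.5 (2000 variable genes, 30 components, 15 neighbours, Leiden 0.10.2 at resolution 1), and a cluster was named from at least 3 raised markers. Scrublet marked 4 doublets in each library, which were kept. TMM came from edgeR 4.0.16. A group at 0 was set to 3 counts.

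Members and gene lists were chosen with earlier results of these data known. Genes named were all replication-independent members, the 2 replication-linked members of each family with the most UMIs, the 3 highest and 3 lowest library ratios among those with at least 50 UMIs, Hist1h1a to Hist1h1e, and in the other lists Slbp, Npat and the extremes.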

Additional observations from a re-analysis of the deposited data

Results flagged for a closer look

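Histone UMIs were also found in barcodes that did not pass the filter and enter no comparison. In the 508 removed barcodes of EL1 the replication-linked members had 192 CPM (168 to 218) and the replication-independent ones 113 (95 to 134). In the 583 removed barcodes of WTg they had 164 (146 to 184) and 69.7 (58.3 to 82.8). Both classes were above the limit that a count of 0 allows.

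The library ratio had opposite signs in different cell classes, with counting intervals on either side of 0, and the difference was not tested. The replication-linked sum had a log2 WTg over EL1 of 1.43 in neuroendocrine-like cells, 0.13 in unnamed clusters and -1.23 in macrophage-like cells. Hist1h2ap stood at 3.72, 0.27 and -0.94 in the same order, and Hist1h1e at 1.06, 0.53 and -2.67. Hist1h1b stood at 1.55 in neuroendocrine-like, -0.15 in unnamed and -2.57 in macrophage-like cells. The summed G2/M list, which holds none of these genes, stood at 0.66 in neuroendocrine-like, -0.12 in unnamed and -0.74 in macrophage-like cells, and its part in the result was not tested. Macrophage-like cells numbered only 40 in EL1 and 47 in WTg, and counting intervals do not cover the spread between cells. Hist3h2ba stood at 0.33 in neuroendocrine-like cells and -0.76 in unnamed clusters.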

How the results depend on the processing

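No paired analysis was possible because each genotype has 1 library. Of 148 values over 17 settings, 108 stayed within the limit set for them, 37 moved and 3 reversed, and the cause was not tested. The limit was the counting interval for a ratio and 1.5 times for a count. For a median it was the median reach, to either side, of the intervals of single members. That limit is wide: the S over G1 median of WTg, 0.56, ran from 0.27 to 0.69 and counted as unmoved. The G2/M over G1 ratio of replication-linked histones stayed between 3.95 and 4.39 in both libraries over 8 alternatives, and was 3.66 (EL1) and 3.58 (WTg) without Hist1h2ap: thinning to 2000 UMIs gave 3.95 (EL1) and 4.16 (WTg), and members mostly of unique sequence 4.12 and 4.08. Their S over G1 ratio moved more: thinning to 2000 gave 0.99 in WTg, thinning to 10000 gave 0.40 in EL1, no thinning 0.45 and 0.47, leaving out Hist1h2ap 0.35 and 0.34, and unique members 0.36 in WTg. Dropping S cells with a G2/M score above 0, chosen after seeing the data, reversed EL1 to -0.13 and gave 0.10 in WTg.

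For replication-independent members S over G1 was -0.75 and -0.39 with 2000 UMIs, -1.01 and -0.95 with 10000, -1.13 and -0.88 without thinning, and -0.87 in WTg without S cells scoring for G2/M. Their library ratio was -0.99 under TMM. The replication-linked library ratio was 0.16 without cells over 10000 genes and in the dense table, 0.10 with equal weight per cell, 0.17 over all barcodes, 0.31 under TMM, 0.094 without Hist1h2ap and reversed to -0.18 in unique members. Within S cells it was -0.058 (reversed) with equal weight, and 0.45, 0.42 and 0.29 with 2000, 10000 or no thinning. Within G1 cells it was 0.0055 with equal weight, 0.26 with 10000 and 0.27 without thinning. The 3 members past 2-fold higher in WTg were 5 with equal weight, 6 under TMM, 1 at a minimum of 50 UMIs and 7 at a minimum of 1. The 9 past it in S of EL1 were 14 at a minimum of 1. Members with under 10 UMIs in a pair of phases give no ratio at this depth.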
